A study of Homo sapiens with 8 samples.

Results

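The regions described here are stretches of the HL-60 genome that carried an H3K27ac peak in both ATRA-treated libraries and in neither control library. Their centers lay away from transcription start sites (TSS) and inside a protein-coding gene, although a long region could still cover a TSS. They were chosen by merging the 4 H3K27ac peak lists and keeping the merged regions with that pattern of peaks whose center was more than 2 kb from every annotated TSS and within a protein-coding gene body. Of 53148 merged regions, 4288 had the pattern (8.07%), 3167 of these were distal to TSS, and 1695 were both distal and intragenic. These 1695 regions, called gained regions, were 9.12% of the 18577 distal intragenic regions. Because the H3K27ac peaks themselves chose the members, their H3K27ac values are given as a description and carry no test.

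HL-60 is an established line of human promyelocytic leukemia cells. The ATRA group was treated for 4 days with 1 µM all-trans retinoic acid from an ethanol stock, and the control group received an equal amount of ethanol for the same time. H3K27ac and H3K4me3 were each profiled by ChIP-seq in 2 replicates per group, which makes 8 libraries of 1 cell line. Broad peaks were called in each library separately, and the read depth is not known.

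H3K27ac is acetylation of lysine 27 of histone H3, a mark of active promoters and active enhancers. H3K4me3, trimethylation of lysine 4, is found mainly at the TSS of active genes, so a distal H3K27ac region without H3K4me3 is the usual chromatin picture of an enhancer. Enhancers often lie in introns, either of the gene they act on or of a neighbor, and position alone does not tell which gene is the target. ATRA is the ligand of the retinoic acid receptors, which bind DNA with retinoid X receptors, and it drives HL-60 cells toward neutrophil-like cells.

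The H3K27ac libraries differed in the number of peaks. The ATRA libraries held 28200 and 39332 peaks that covered 64.8 and 86.2 Mb, and the control libraries held 15457 and 29616 peaks that covered 28.8 and 54.0 Mb. A region absent from a control list can therefore also be a region that the list with fewer peaks did not reach, and this part was not tested. With every library limited to its 15457 longest peaks, 798 regions were gained and 389 were lost, that is, present in both control libraries and no ATRA library. With the 15457 peaks of highest −log10 q, the numbers were 497 gained and 424 lost, and with all peaks they were 1695 gained and 248 lost. With peaks of −log10 q of at least 5 only, 148 regions were gained and 38 were lost. More regions were gained than lost under each of these settings, from near equal numbers to several-fold. Without control replicate 1, the library with fewest peaks, 1810 regions were gained and 3446 were lost. A lost region then needed a peak in the remaining control library only, while a gained region still needed both ATRA libraries. Without ATRA replicate 1, the rule was looser for gained regions instead, and 8233 were gained and 321 lost. Such unequal rules cannot decide the direction. The authors kept peaks found in both replicates and reported fewer H3K27ac and fewer H3K4me3 peaks with ATRA than in the control. Between same-numbered replicates, the deposited lists instead held more peaks of both marks with ATRA. The reason for this conflict was not tested, so the direction from control to ATRA rests on the labels of the deposited libraries.

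The cell type was checked at promoters, taken as 2 kb on either side of every annotated TSS. Of 11 myeloid marker genes, 8 had promoter H3K4me3 in all 4 libraries, among them MPO, which encodes myeloperoxidase, and SPI1, which encodes the myeloid transcription factor PU.1. ELANE and LYZ had no promoter H3K4me3 peak in any library. Of 17 marker genes of other lineages, 13 had none in any library, and KLF1, which encodes an erythroid transcription factor, had it in all 4.

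The windows printed here show the DNA at the regions on which the description turns. They are the central 300 bases of the longest regions, of the longest regions that also carried H3K4me3 in both ATRA libraries and no control library, and of the longest remaining region in each of the 2 genes with most gained regions. All are on the plus strand of hg19, 5′ to 3′, and touch no annotated exon. Capitals mark matches, on either strand, to 6 short motifs that were searched by their letters. The ETS core, which PU.1 binds, was read as AGGAAG. The core of the RUNX factors was TGTGGT. The motif of the C/EBP family was TTGCNNAA and that of the AP-1 family was TGANTCA. The motif of the GATA family was read as AGATAA. The core site of nuclear receptors was AGGTCA. None of these motifs contains another.
CCDC12, chr3:46996740-46997039: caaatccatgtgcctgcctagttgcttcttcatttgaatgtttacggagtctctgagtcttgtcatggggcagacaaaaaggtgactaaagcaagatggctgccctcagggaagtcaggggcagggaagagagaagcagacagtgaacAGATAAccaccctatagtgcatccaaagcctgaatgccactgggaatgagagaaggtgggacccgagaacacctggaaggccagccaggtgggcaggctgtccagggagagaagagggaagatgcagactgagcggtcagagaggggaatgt
CHST15, intron 5, chr10:125793601-125793900: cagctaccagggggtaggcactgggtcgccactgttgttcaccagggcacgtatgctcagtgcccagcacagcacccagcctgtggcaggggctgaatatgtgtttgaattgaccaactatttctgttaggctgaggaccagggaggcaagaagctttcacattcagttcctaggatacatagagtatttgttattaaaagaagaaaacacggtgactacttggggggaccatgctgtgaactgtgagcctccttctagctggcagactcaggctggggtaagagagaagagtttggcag
SEMA6B, chr19:4567153-4567452: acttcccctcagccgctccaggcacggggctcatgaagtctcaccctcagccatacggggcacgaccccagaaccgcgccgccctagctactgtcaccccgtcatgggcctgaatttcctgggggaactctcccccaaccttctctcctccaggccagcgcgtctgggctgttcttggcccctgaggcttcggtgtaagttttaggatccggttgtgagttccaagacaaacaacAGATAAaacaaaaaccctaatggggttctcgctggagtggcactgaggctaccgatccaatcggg
CEACAM1, chr19:43028446-43028745: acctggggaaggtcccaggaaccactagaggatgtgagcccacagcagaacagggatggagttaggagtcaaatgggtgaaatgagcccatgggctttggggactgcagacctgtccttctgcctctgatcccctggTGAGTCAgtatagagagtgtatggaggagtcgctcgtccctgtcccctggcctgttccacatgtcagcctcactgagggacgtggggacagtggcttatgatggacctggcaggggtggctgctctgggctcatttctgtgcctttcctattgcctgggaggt
CHST15, intron 1, chr10:125814817-125815116: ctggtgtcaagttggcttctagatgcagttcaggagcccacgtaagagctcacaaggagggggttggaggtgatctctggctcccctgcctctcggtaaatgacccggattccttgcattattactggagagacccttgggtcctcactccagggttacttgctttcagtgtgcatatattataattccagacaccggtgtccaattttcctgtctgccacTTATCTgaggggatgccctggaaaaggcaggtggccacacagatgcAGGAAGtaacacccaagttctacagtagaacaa
RUNX2, chr6:45595691-45595990: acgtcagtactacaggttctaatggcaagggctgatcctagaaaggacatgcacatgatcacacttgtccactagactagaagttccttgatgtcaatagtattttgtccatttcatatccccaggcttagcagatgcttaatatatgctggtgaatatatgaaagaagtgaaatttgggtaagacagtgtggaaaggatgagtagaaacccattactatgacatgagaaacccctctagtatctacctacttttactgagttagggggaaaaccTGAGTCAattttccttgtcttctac

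The windows differed in composition. The SEMA6B window had 58.7% G and C and 15 CpG dinucleotides, and the CEACAM1 window had 57.3% and 3 CpG, while the RUNX2 window had 1 CpG. The CEACAM1 and RUNX2 windows each held an AP-1 match, the window in intron 1 of CHST15 held an ETS match and a GATA match, and that in intron 5 of CHST15 held none of the motifs. A match is only a run of letters and does not show that a factor was bound.

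Over all 1695 gained regions, the central 300 bases had a mean of 46.5% G and C (SD 7.86, n = 1695 regions), against 47.0% in the 1726 kept regions, which are the distal intragenic regions present in all 4 H3K27ac libraries. The median was 3 CpG in gained, kept and lost regions alike. The ETS core was found in 36.99% of gained, 35.3% of kept and 35.9% of lost regions, and in 33.7% of all 53148 merged regions. The RUNX core was found in 22.5% of gained and 22.7% of kept regions, against 28.6% of the 248 lost regions and 19.6% of all. C/EBP matches were in 14.2% of gained, 15.5% of kept and 17.7% of lost regions, against 14.5% of all. AP-1 matches were in 9.62%, 8.58% and 12.1% of gained, kept and lost regions, against 8.89% of all. GATA matches were in 16.2% of gained, 16.2% of kept and 19.4% of lost regions, against 16.9% of all. The nuclear receptor core site AGGTCA was in 22.4% of gained, 20.5% of kept and 17.7% of lost regions, against 19.2% of all. Direct repeats of this core site, the arrangement that retinoid receptors bind, were sought with exactly 1, 2 or 5 bases between the 2 copies, and 1 gained region held the form with 1 base while 0 held the others. Over all merged regions, 12, 7 and 3 held these forms (0.023%, 0.013% and 0.0056%). No motif separated gained from kept regions by more than 2 percentage points. The motif shares have no test, since regions are not replicates, and they depend on the base composition given above. Only the central 300 bases were searched, which are a smaller part of kept regions (median 6719 bp) than of gained regions (median 2165 bp). Only exact letters counted as a match, so variant forms of a site were not counted.

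The gained regions were short next to the regions present throughout. Their merged length ranged from 239 to 27346 bp with a median of 2165 bp, and together they covered 5.03 Mb. The kept regions had a median of 6719 bp and the lost regions one of 2022 bp. Of the gained regions, 258 were shorter than 1 kb and 41 were at least 10 kb long. The median length depends on the merging and on the libraries used. For the stretches shared by both ATRA lists alone it was 634.5 bp, without ATRA replicate 1 or 2 it was 709 or 739 bp, and without control replicate 2 it was 2737 bp.

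The ATRA libraries gave different lengths to the same regions. The median length under peaks was 1261 bp in ATRA replicate 1 and 1660 bp in replicate 2, with 679 regions longer in replicate 1 and 1015 longer in replicate 2. The lengths were within 2-fold of each other in 932 regions (55.0%) and more than 5-fold apart in 192, and the rank correlation over the regions was 0.49, a description of 1695 regions from the same libraries. Few of the regions had a high −log10 q. The best −log10 q of the region was at least 5 in 318 regions (18.8%) in replicate 1 and in 299 (17.6%) in replicate 2, and in both replicates in 76. In kept regions the matching shares were 16.7% and 16.1%.

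**Figure D1:**
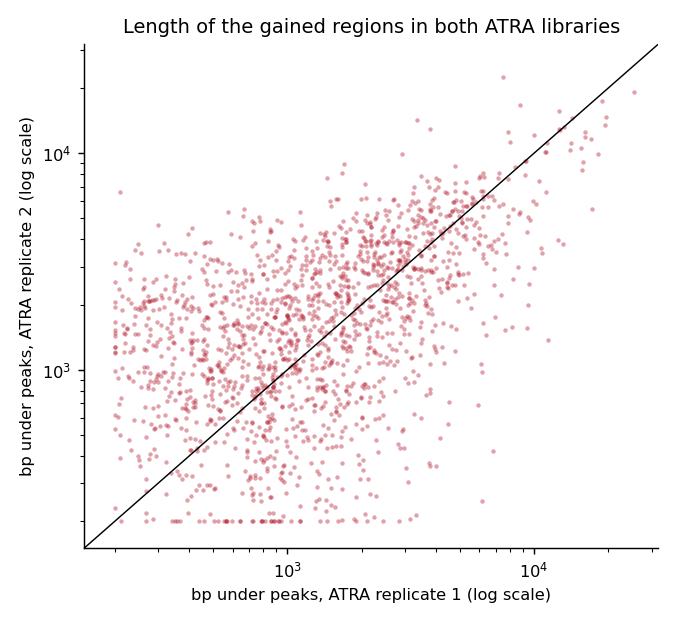
Length under H3K27ac peaks of each of the 1695 gained regions in ATRA replicate 1 (x axis, bp, log scale) and ATRA replicate 2 (y axis, bp, log scale), with the line of equality. The points scatter widely around the line, with 932 regions within 2-fold and more regions above the line (1015) than below it (679).

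The 10 longest gained regions, by the mean length under peaks in both ATRA libraries, are described here. The longest was in intron 1 of CCDC12, a gene of the spliceosome, at chr3:46983217-47010562, with 25544 bp under peaks in ATRA replicate 1 and 19194 bp in replicate 2. The next was in intron 5 of CHST15, which encodes a sulfotransferase of chondroitin sulfate, at chr10:125784123-125803378, with 18821 and 17418 bp. The third, at chr19:4557028-4577577, was within the annotated body of SEMA6B, a semaphorin gene, but outside its canonical transcript, with 19607 and 14708 bp. These regions were long in both replicates.

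Further long regions were in genes of retinoid and eicosanoid metabolism. In DHRS3, which encodes a reductase that converts retinal to retinol, the region at chr1:12650157-12667599 had 17039 and 11605 bp under peaks in the ATRA replicates, in intron 3 and centered 2557 bp from the nearest TSS. In TBXAS1, the gene of thromboxane synthase, the region at chr7:139582061-139598182 had 16122 and 12500 bp and was 61021 bp from the nearest TSS. The region in intron 1 of SYT2, a synaptotagmin gene, was the least even of the 10, with 7494 bp in replicate 1 and 22428 bp in replicate 2. The others were in intron 1 of SH3RF3 (19485 and 13588 bp), in intron 10 of PALLD in a stretch that the annotation also gives to CBR4 (14291 and 14633 bp), in intron 2 of MECOM (12661 and 15732 bp) and in a gene without a symbol, ENSG00000285837 (18205 and 9939 bp). Each of these 10 regions was at 0 bp in both control libraries, as the rule requires. Those in CHST15, SEMA6B, SYT2, PALLD and DHRS3 were long enough to cover an annotated TSS, although their centers were distal.

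The 1695 regions lay in 1296 of 20176 protein-coding genes (6.42%), called hosts. Most hosts, 1002, held 1 gained region, 190 held 2, 51 held 3, 27 held 4, 9 held 5, 12 held 6, 3 held 7 and 2 held 8. The 294 hosts with 2 or more regions held 767 regions (45.3%). A region lay in 1 host in 1595 cases in 2 overlapping hosts in 98 cases and in 3 in 2 cases, and 49 hosts had no gene symbol. Neighboring gained regions of a gene were a median of 19260 bp apart between centers over 501 pairs, and 179 pairs were within 10 kb.

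Host genes were long. Their median length was 99.5 kb, against 24.6 kb in the other protein-coding genes. Of genes longer than 100 kb 17.6% were hosts, of genes of 20 to 100 kb 7.02%, and of genes up to 20 kb 1.06%. A longer gene offers more positions that are both distal to TSS and intragenic, so these shares follow in part from the rule. Hosts also often held other distal H3K27ac, in shares that were not matched for gene length. A kept region was held by 384 hosts (29.6%), against 5.18% of other genes. A lost region was held by 49 hosts (3.78%), against 1.02%. The median distance between the centers of a gained region and the nearest kept region was 36565 bp. Of the gained regions, 264 were within 10 kb of a kept center and 415 more than 100 kb away. The same distance was not taken for other regions, so these values do not show the gained regions to be near or apart.

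**Figure D2:**
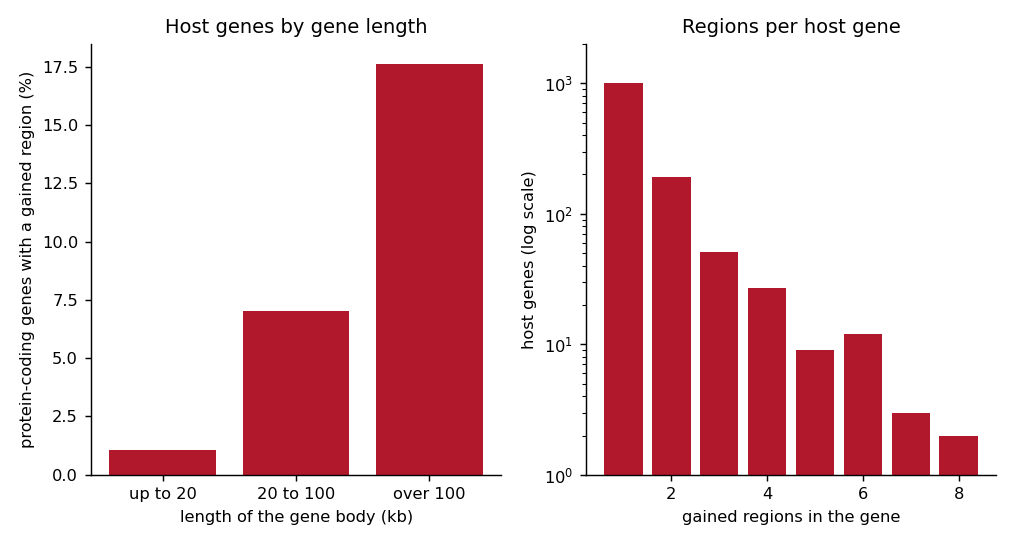
Left, the percentage of protein-coding genes that held at least 1 gained region, by length of the gene body. Right, the number of host genes (log scale) by the number of gained regions in the gene. The share of hosts rose from 1.06% to 17.6% with gene length, and 1002 of 1296 hosts held a single region.

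CHST15 and RUNX2 held most regions, 8 each. In CHST15 the 8 regions occupied much of an 85.9 kb gene and had 35642 bp under peaks in ATRA replicate 1 and 40182 bp in replicate 2. Of these, 6 lay in intron 1, 1 in the last exon, and the long region printed above lay in intron 5. The promoter windows of CHST15 had 4201 and 4001 bp of H3K27ac in the ATRA libraries and 0 bp in both control libraries, and no H3K4me3 peak in any library. The intron 5 region was 19256 bp long and centered 4384 bp from the nearest TSS, so it covered that TSS. The promoter length can therefore be part of this gained region counted again. It was not split by TSS, so it was not shown to be a separate promoter gain.

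RUNX2 encodes a runt-domain transcription factor best known from bone. Its 8 regions had 14693 and 12354 bp under peaks, with single lengths from 788 to 4850 bp, and 7 of the 8 lay outside its canonical transcript, in the part of the 336.2 kb gene body that only other transcripts cover. Its promoter windows had 4542 bp of H3K4me3 in each of the 4 libraries, the same length in both groups. Promoter lengths, here and below, count only bases inside the windows. A peak that fills a window cannot become longer by this measure, so equal lengths do not show an unchanged mark.

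HIVEP3, RFLNA and SMG6 held 7 regions each. HIVEP3 encodes a zinc finger protein, and 5 of its regions were in intron 2. They were uneven between replicates, with 37598 bp under peaks in replicate 1 and 14753 bp in replicate 2. RFLNA, the gene of a filamin-binding protein, had 31325 and 18527 bp, all 7 regions being outside its canonical transcript. SMG6, an endonuclease of nonsense-mediated decay, had 33258 and 19071 bp spread over introns 7 to 13. In these 3 genes replicate 1 gave the greater length.

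Of the 12 genes with 6 regions each, the 5 with the greatest summed region length completed the 10. In SH3RF3, a gene of a RING-type ubiquitin ligase, 4 of the 6 regions were in intron 1, with 35398 and 25546 bp in all. In PALLD, which encodes the actin-binding protein palladin, they had 21723 and 28864 bp. In COLEC12, the gene of a scavenger receptor with a collagen-like domain, 5 of the 6 were in intron 2, with 18332 and 24516 bp. In GMDS, an enzyme of fucose synthesis, they had 20221 and 16563 bp. In NCOA3, a coactivator of nuclear receptors, 4 were in intron 1 and 2 in intron 2, with 16497 and 20375 bp. SH3RF3 and COLEC12 had no peak of either mark at their promoter windows in any library, and PALLD had H3K27ac there in the ATRA libraries only (1525 and 6064 bp) and no H3K4me3. NCOA3 had promoter H3K4me3 in all 4 libraries, at 4055 and 3539 bp with ATRA and 4055 and 3460 bp in the control.

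**Figure D3:**
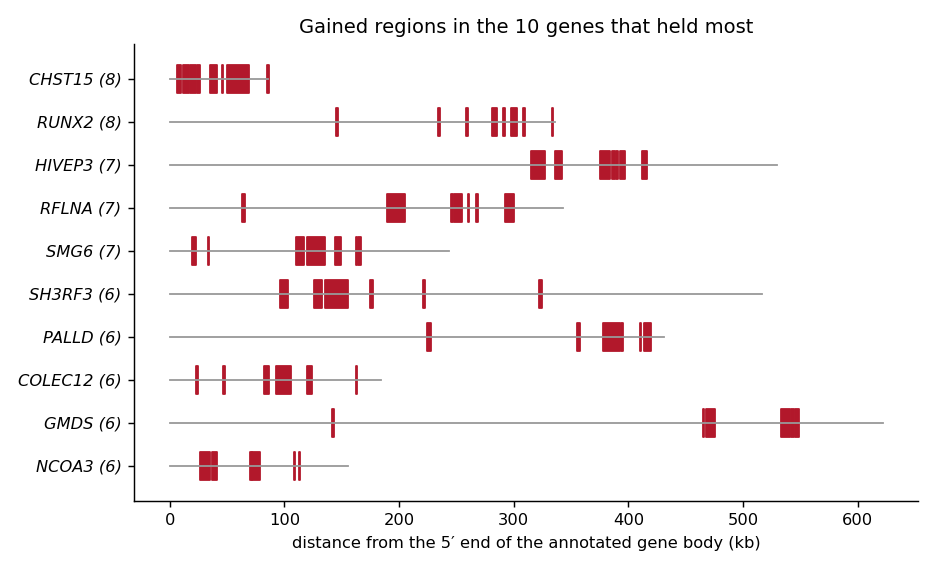
Gained regions (red bars) along the annotated body (gray line) of the 10 genes that held most, in kb from the 5′ end of each gene, with the number of regions in brackets. The regions fill much of CHST15, lie mostly toward the 3′ end of RUNX2 and PALLD, and form separate groups in HIVEP3 and GMDS.

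Counting each region once for each host gave 1797 pairs, of which 82.0% were intronic, against 82.7% of positions taken every 1 kb through distal gene bodies. In 474 pairs (26.4%) the center was in the first intron of the canonical transcript. A further 247 were in the second intron, 752 (41.8%) in a later intron and 96 (5.34%) in an exon, and 228 were within the gene body but outside the canonical transcript. First introns held 31.9% of kept, 24.2% of lost and 25.4% of the other distal intragenic regions, which are those with any other combination of libraries, and 19.6% of the positions taken every 1 kb. With the introns of the longest transcript the gained share was 29.4%. The centers were spread evenly along the host, with 34.6% in the first, 30.4% in the middle and 35.1% in the last part of 3 equal parts.

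The distance from the center to the nearest TSS of any gene was between 2007 and 189478 bp, with a median of 8388 bp. It was 2 to 5 kb in 496 regions, 5 to 10 kb in 465, 10 to 50 kb in 666 and over 50 kb in 68. The median was 7774.5 bp in kept and 10400.5 bp in lost regions. The regions nearest the limit on its inner side were in NCOA3 (2007 bp), PHKB (2014 bp) and CLTCL1 (2015 bp). Those just left out were in CDH26 (2000 bp), MAMSTR (1997 bp) and ARPIN (1996 bp), and the MAMSTR region was covered whole by H3K4me3 in all 4 libraries. With a limit of 1 kb there were 1947 regions and with 5 kb 1199, so the limit changed the number by less than 1.5-fold.

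The gained regions were found on every autosome and on the X chromosome. Per Mb of protein-coding gene body, the density was highest on chromosome 20 (2.63) and lowest on the X chromosome (0.28), where 15 gained and 31 kept regions were found.

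H3K4me3 was measured in other libraries than those that chose the regions, so it can be compared between groups. No H3K4me3 was the most frequent state: 1426 of 1695 (84.1%) overlapped no H3K4me3 peak in any library, against 636 of 1726 kept regions (36.9%) and 210 of 248 lost regions (84.7%). Over all 18577 distal intragenic regions the share was 83.4%, so the gained regions were near this background. A peak overlapped 13.2% of gained regions in ATRA replicate 1 and 9.15% in ATRA replicate 2, and 7.49% and 2.66% in control replicates 1 and 2. Both ATRA libraries were above both control libraries. The mean was 11.2% ± 2.88 (SD, n = 2) with ATRA and 5.07% ± 3.42 (SD, n = 2) in the control, a difference of 6.11 percentage points with a two-sided exact permutation p = 0.333, which is the smallest that 2 against 2 libraries allow. The H3K4me3 lists also differed in size, with 16258 and 16487 peaks in the ATRA and 16160 and 13241 in the control libraries. Without control replicate 2, the difference fell to 3.69 points, and with at least 50% of the region under H3K4me3 it was 1.86 points.

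In kept regions the H3K4me3 share was 52.9% and 44.2% with ATRA and 56.6% and 32.0% in the control, a difference of 4.23 points that lay within the spread between replicates (exact permutation p = 1.0). The difference between gained and kept regions in this contrast was 1.88 points (exact permutation p = 1.0). It took both signs when single libraries were left out, from −7.99 points without control replicate 1 to 11.7 points without control replicate 2, and was −0.49 points without ATRA replicate 2 and 4.25 points without ATRA replicate 1. It was also below 0 with at least 50% of a region under H3K4me3 (−0.20 points) and with centers over 5 kb from a TSS (−0.12 points). The direction of this difference was thus not settled by 2 libraries per group. In lost regions the share was 6.45% and 5.65% with ATRA and 14.9% and 6.05% in the control. The gained minus lost contrast was 10.5 points, with both ATRA libraries (6.76 and 3.50 points) above 0 and both control libraries (−7.43 and −3.39 points) below 0 (exact permutation p = 0.333).

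**Figure D4:**
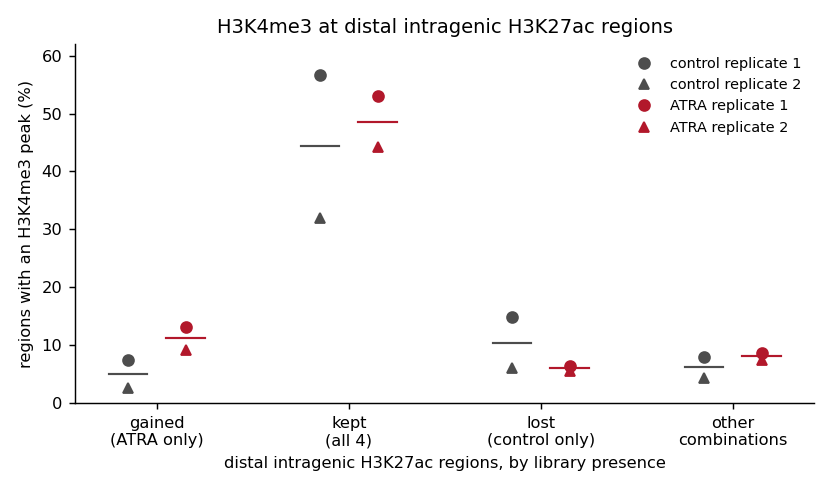
Percentage of distal intragenic H3K27ac regions that an H3K4me3 peak overlapped, by library (circles, replicate 1; triangles, replicate 2; red, ATRA; gray, control; bars, means of 2) for gained, kept, lost and other regions. In gained regions both ATRA libraries (13.2% and 9.15%) lie above both control libraries (7.49% and 2.66%), and in kept regions the libraries overlap.

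A total of 52 gained regions (3.07%) carried H3K4me3 in both ATRA libraries and no control library, and 0 carried it in both control libraries and no ATRA library. Among all 18577 distal intragenic regions these patterns made up 1.25% and 0.167%. In kept regions they made up 2.09% and 0.46%. H3K4me3 was most frequent near the TSS limit. Of the 496 gained regions at 2 to 5 kb, 21.4% and 15.9% overlapped a peak in the ATRA libraries and 13.5% and 6.65% in the control libraries. Of the 465 at 5 to 10 kb, 11.6% and 7.53% did with ATRA and 4.30% and 1.29% in the control. Of the 666 at 10 to 50 kb, 8.41% and 4.95% did with ATRA and 5.11% and 0.75% in the control. Of the 68 over 50 kb, 11.8% and 11.8% did with ATRA and 8.82% and 1.47% in the control, so the share did not fall steadily with distance. The groups overlapped in the 10 to 50 kb regions. Of the 52 regions, 23 were at 2 to 5 kb, 19 at 5 to 10 kb, 8 at 10 to 50 kb and 2 over 50 kb from a TSS.

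The longest of the 52 were again in SEMA6B and CEACAM1, and both regions were long enough to cover an annotated TSS. The SEMA6B region had 4665 and 4379 bp of H3K4me3 in the ATRA libraries and 0 bp in both control libraries. The region in intron 2 of CEACAM1, an adhesion receptor of granulocytes, at chr19:43022953-43034239, had 7477 and 6348 bp of H3K4me3 with ATRA and 0 bp in the control, most of its 11287 bp. In MACO1, intron 5, the values were 5632 and 4901 bp, and in intron 1 of DAAM2, which encodes a formin that acts on actin, they were 3937 and 2842 bp. These 4 regions had broad H3K4me3 in both ATRA replicates.

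The other 4 of the 8 longest had narrower H3K4me3. The region in intron 3 of RTN4, a reticulon that shapes the endoplasmic reticulum, had 1448 and 985 bp, and that in intron 1 of KIAA0513 had 1036 and 251 bp. The region in intron 8 of SIGLEC11, a sialic acid-binding receptor, in a stretch shared with ENSG00000269179, had 889 and 381 bp. The region in the body of the kinase gene DYRK3, outside its canonical transcript, had 253 and 200 bp. In each of the 8 regions ATRA replicate 1 had the greater length.

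The promoters of the hosts were examined for the same mark. Promoter H3K4me3 averaged 3592 and 3453 bp per host in the ATRA libraries and 3446 and 2959 bp in the control libraries. The means were 3522 ± 98.4 and 3202 ± 345 bp (SD, n = 2), a difference of 319.9 bp (exact permutation p = 0.333), and all other protein-coding genes had a difference of 172.9 bp. Hosts had the longer mark in the control too (3202 against 2272 bp in other genes). As a ratio of ATRA to control means, the change was 1.1 in hosts and 1.076 in other genes. The host difference was 76.1 bp without control replicate 2 and 563.8 bp without control replicate 1. With 1 kb on either side of the TSS it was 134.9 bp, with the canonical TSS only 138.9 bp and with H3K4me3 peaks of −log10 q of at least 5 210.8 bp, and under each of these settings the groups overlapped (exact permutation p = 0.667).

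Promoter H3K4me3 was longer in both ATRA than in both control libraries in 296 hosts (22.8%), against 16.5% of all protein-coding genes, and shorter in 42 (3.24%), against 2.77%. A promoter without the mark in any library can fall in neither class, and fewer hosts (21.5%) than other genes (41.6%) lacked it. Among genes with the mark in any library, it was longer in 29.1% of hosts and 27.5% of other genes, so most of the gap between hosts and other genes was not seen there. Promoter H3K4me3 was present in all 4 libraries in 951 hosts (73.4%), against 54.7% of other genes. Promoter H3K27ac was present in both ATRA libraries and no control library in 121 hosts (9.34%) and in 2.73% of other genes. This last value shares its libraries with the rule and is a description.

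In 10 hosts H3K4me3 was present at the promoter windows in both ATRA libraries and no control library (0.77% of hosts, against 61 or 0.32% of other genes). The longest was at FGR, which encodes a Src family kinase of myeloid cells, with 6508 and 5656 bp. CEACAM1 had 5120 and 3507 bp, and its relative CEACAM4 had 2377 and 1702 bp. The gained region in CEACAM1 covered a TSS, so its promoter H3K4me3 can include part of the H3K4me3 of that region. GAS7, a gene of the actin and membrane-shaping machinery with 5 gained regions, had 2353 and 1852 bp. IQSEC2 had 2429 and 1171 bp, TGM5, a transglutaminase gene, 1747 and 1210 bp, and CSF1R, the receptor of macrophage colony-stimulating factor, 1510 and 801 bp. CACNA1C had 959 and 1142 bp, AQP9, a water and glycerol channel of leukocytes, 550 and 785 bp, and CHRNB4 581 and 202 bp. For H3K4me3, all 10 were at 0 bp in both control libraries. Promoter H3K27ac did not always follow. GAS7, TGM5 and CSF1R had it in all 4 libraries, with more in both ATRA libraries. CACNA1C, alone of the 10, had less in both ATRA libraries (106 and 386 bp) than in both control libraries (1429 and 1662 bp).

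**Figure D5:**
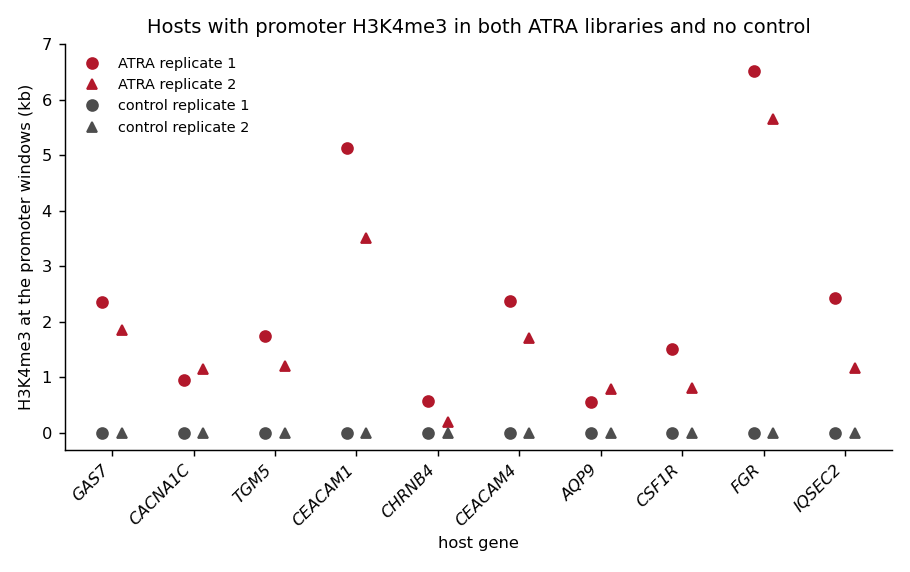
H3K4me3 at the promoter windows (kb) of the 10 host genes with this mark in both ATRA libraries and no control library (circles, replicate 1; triangles, replicate 2; red, ATRA; gray, control). FGR (6508 and 5656 bp) and CEACAM1 (5120 and 3507 bp) stand highest, and all control values are 0.

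The hosts were then read against lists of genes that fit neutrophil differentiation and ATRA. Of 17 genes of kinase and phospholipid signaling, 10 were hosts with 13 regions, against 6.42% of all protein-coding genes. They were FGR, LYN, PIK3CG, PIK3CD, PIK3R5, PLCG2, PRKCB, PRKCD, INPP5D and VAV1, with a median length of all 17 genes of 84.7 kb. PIK3R5, a regulatory subunit of the phosphoinositide 3-kinase gamma, held 3 regions with 4069 and 5093 bp under peaks, and PRKCB, protein kinase C beta, held 2 with 7949 and 8939 bp. FGR and LYN held 1 each, of 632 and 1128 bp and of 2033 and 3172 bp.

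Of 20 myeloid transcription factor genes, 5 were hosts with 16 regions. Beside RUNX2, RUNX1 held 5 with 3210 bp in replicate 1 and 12428 bp in replicate 2, in a gene body of 1217 kb that also held 5 kept regions and 1 lost region. ETV6, IRF1 and MXD1 held 1 each. The IRF1 region lay outside the canonical transcript of IRF1 and had 3952 and 6762 bp. SPI1, CEBPA, CEBPB and CEBPE were among the 15 that held none.

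Of 19 genes of retinoid receptors and metabolism, 3 were hosts. RXRA, a receptor partner of the retinoic acid receptors, held 1 region in intron 2 with 2150 and 1420 bp. DHRS3 held 2, the long one described above and 1 of 1472 and 2409 bp, which also had H3K4me3 in the ATRA libraries only (2372 and 51 bp). Its promoter windows had 8377 and 6638 bp of H3K27ac with ATRA and 0 bp in the control. The long DHRS3 region covered a TSS, so this promoter length can include part of that region. ALDH1A2, a retinal dehydrogenase gene, held 6 regions with 12452 and 18141 bp, but all 6 lay outside its canonical transcript, and some lay in AQP9 or LIPC, which the 544.4 kb annotated body of ALDH1A2 contains. RARA, CYP26A1, TGM2 and CD38 were among the 16 that held none.

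Of 14 primary granule genes only MPO was a host, with 1 region of 355 and 586 bp under peaks. H3K4me3 covered the whole 591 bp of this MPO region in all 4 libraries. Of 18 secondary and tertiary granule genes and 7 NADPH oxidase genes 0 were hosts. Of 23 genes of chemoattractant, Fc and innate receptors only C5AR1, the receptor of complement C5a, was, with 265 and 1923 bp. The 4 lists had median gene lengths of 6.39, 14.2, 29.4 and 18.6 kb. In lists of this size, these counts are near the share of all genes. Of 17 adhesion genes 4 were hosts with 1 region each. CEACAM1 was described above, the region in PXN, the gene of paxillin, had 4784 and 8748 bp, that in CD44 had 2925 and 524 bp, and that in ITGB2, the beta 2 integrin chain, had 552 and 1735 bp.

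Of 23 cell cycle and DNA replication genes, 2 were hosts, MCM5 (719 and 200 bp) and CDC6 (1069 and 1232 bp). Of 17 marker genes of other lineages, CD3E was a host, with 828 and 788 bp. Of 11 myeloid marker genes MPO and ITGB2 were, which stand in other lists too. Beside the counts of each list stands the background of 6.42%, and gene length was not balanced between the lists. No test was made of any list, since the rule itself picked the hosts.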

How the data were processed

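ChIP-seq of H3K4me3 and H3K27ac was analyzed in ATRA-treated and control HL-60 cells (2 replicates each). The authors removed adapters, mapped the reads to hg19 and called broad peaks in each library. The submitters' processing notes name cutadapt, Bowtie and MACS2, with versions not given in the sources used here. Peak positions were deposited with columns for fold enrichment and for −log10 p and q. The first 2 of these columns held impossible values and were left out. The deposited −log10 q served as a filter at 5, to rank peaks in 1 equal-number setting and to describe the best peak of a region. Its lowest value in a library was between 0.00726 and 0.298, low for called peaks, so it is a rough guide only. Overlap meant at least 1 bp. Genes, introns and TSS came from GENCODE release 44 mapped to GRCh37, and 0 regions ran past a chromosome end of that genome. Group differences over libraries used two-sided exact permutation tests. Python 3.11.15, pandas 2.3.3 and SciPy 1.17.1 were used, and the code was tested on simulated data and recovered 7 of 7 known answers. The text named the 10 hosts with most regions, the 10 longest regions, the 8 longest with H3K4me3 in both ATRA libraries and no control library, the 3 regions on either side of the 2 kb limit and host genes of the lists. The 10 hosts with H3K4me3 at the promoter in the ATRA libraries only were added after their values were seen. A few items under this rule, among them 1 of the lists, are not reported here. Members, lists and tests were chosen with earlier results of these data known. No source used here says that the ChIP-seq replicates were separate cultures, so p-values measure only the spread between these libraries, which may be technical.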

Additional observations from a re-analysis of the deposited data

How the results depend on the processing

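The number of gained regions rested on the libraries. It was 1810 without control replicate 1 (with 3446 lost, for which a peak in the remaining control library sufficed). It was 8233 without ATRA replicate 1, 4942 without ATRA replicate 2 and 2804 without control replicate 2. The number was above the 1695 reported each time, since each left-out library loosens the rule. It was 2806 for stretches shared by both ATRA lists without merging and 148 at −log10 q of at least 5, and, in settings added after seeing the data, 798 and 497 with equal peak numbers. Of the 1695 regions, 552 and 374 were still overlapped by a gained region in these equal-number settings. At −log10 q of at least 5, 76 of them (4.48%) were still overlapped. The other settings kept the number within 1.5-fold, but not always the members. With peaks of at least 1 kb only, 764 of the 1695 regions (45.1%) were still overlapped by a gained region. In the rest of these settings the share was at least 70.7%, the value with a TSS distance above 5 kb.

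Replicate numbers are shared between the groups, and same-numbered libraries share a tag in the peak names. Over 40 kb bins the deviations of same-numbered libraries from their group means correlated at 0.56 for H3K27ac and 0.22 for H3K4me3. With 2 numbers this is only a hint. With the replicate block, that is, within replicate numbers, a mean of 7368 regions was gained (6305 and 8430) and 2339 lost, since 1 library a group then sufficed. The blocked H3K4me3 differences were 6.11 points, 1.88 points and 319.9 bp, with sign-flip exact p = 0.5, 1.0 and 0.5, of which 0.5 is the smallest that 2 pairs allow.

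The H3K4me3 difference of the gained regions stayed positive under the alternatives run, between 3.69 and 8.53 points with 1 library left out. The contrast of gained and kept regions turned negative with at least 50% of the region covered (−0.20 points), with a TSS distance above 5 kb (−0.12 points) and without some libraries (−7.99 to 11.7 points). Host promoter H3K4me3 stayed longer with ATRA, between 76.1 and 563.8 bp with 1 library left out. The first intron share was 29.4% with the longest transcripts and between 25.6% and 27.9% with 1 library left out. The median length was 634.5 bp for shared stretches and between 709 and 2737 bp with 1 library left out. The cause of these shifts was not tested beyond the construction of each setting. The depth behind each peak is unknown, which limits every statement that a peak was absent.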

Other observations

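Both gained and lost regions were held by 49 hosts (3.78%), while 1.02% of other genes held a lost region. Hosts were longer than other genes (median 99.5 against 24.6 kb), and these shares were not matched for gene length. RUNX1 held 5 gained and 1 lost region, and HK2, which encodes a hexokinase of glycolysis, held 3 gained, 2 kept and 1 lost region, with 2489 and 5160 bp under peaks of the gained regions in the ATRA libraries. ST3GAL4, a sialyltransferase gene, held 3 gained and 1 lost region (3474 and 5564 bp). These genes were named after their values were seen, as examples of hosts with 3 or more gained regions and a lost one.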
